A study of Mus musculus with 6 samples.

Results

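Protocadherins and the Fat and Celsr cadherins are large cell-surface proteins of the cadherin superfamily, and 10 of their genes were compared between 2 ectodermal tissues of the mouse embryo. The genes were Pcdh1, Pcdh7, Pcdh8, Pcdh17, Pcdh18, Pcdh19, Celsr1, Celsr2, Celsr3 and Fat1. They were chosen by symbol in the annotation of the array, which gave 22 probes of the 45281 on it, between 1 and 4 for each gene, and are 10 of the 19057 genes that it names. Of these 22 probes, 11 were detected on at least 3 of the 6 arrays and were tested, and they belong to 7 genes. No probe of Pcdh8, Pcdh18 or Celsr1 was detected often enough to be tested.

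The tissues were surface ectoderm (SE), the sheet that later forms the epidermis and placodes, and neural ectoderm (NE), the plate that folds into the neural tube. Both were dissected with needles at the forebrain level from wild-type CD-1 embryos labelled E8.5, after a pancreatin and trypsin digestion, and the protocol states that cephalic mesenchyme was left out. Each of the 3 SE and 3 NE samples was a pool of tissue from many embryos. The study used more embryos for each SE pool than for each NE pool, and gives their stage as a range that ends at E8.5. Each pool was hybridised to 1 single-colour Illumina MouseWG-6 v2 array. The study asked which signals and transcription factors separate the SE and NE fates. The samples are described as independent biological replicates, and the p-values measure the spread among 3 pools per tissue. The replicate numbers are those of the labels, but the study's heat map shows the NE array with the brightest En1 as replicate 3, whereas the labels make it replicate 2. The numbers of these NE arrays are therefore uncertain, while the comparison of SE with NE does not depend on them.

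Cadherins hold cells together through repeated extracellular domains that bind calcium. Protocadherins bind more weakly than the classical cadherins E-cadherin and N-cadherin and sort or guide cells as often as they glue them. The non-clustered members are divided into a delta-1 group, with Pcdh1 and Pcdh7, and a delta-2 group, with Pcdh8, Pcdh17, Pcdh18 and Pcdh19. Celsr proteins, the vertebrate relatives of Drosophila Flamingo, carry the planar polarity signal between neighbouring cells, which orients the cell movements that narrow and close the neural plate. Fat1 belongs to the giant Fat cadherins, which in Drosophila act in tissue polarity and growth control.

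Background was corrected with the negative-control model of limma, and the signals were then quantile normalized and put on the log2 scale, and each probe was compared between the tissues with limma. Adjusted p-values come from that fit over 19590 probes, except where an alternative fit is named beside them. Between 18916 and 19068 probes were detected on the SE arrays and between 19174 and 19402 on the NE arrays, at a detection p under 0.05. All 14 surface ectoderm markers tested were higher in SE, and 12 of 13 anterior neural markers were higher in NE. Epcam, the epithelial adhesion gene, and Pax6, the eye and forebrain regulator, were not detected on any array, which does not show that their RNA was absent. Genes listed as markers of other cells also differed, although a listing does not show that a gene is confined to those cells. Higher in SE were 8 of 10 cephalic mesenchyme genes, 6 of 7 neural crest genes and 6 of 8 blood and endothelium genes. Higher in NE were 4 of 6 endoderm and notochord genes. Some listed genes met the detection filter through their brighter tissue only, so that the filter favoured that direction. With detection required on all 6 arrays, 11 of 11 surface ectoderm markers and 4 of 5 mesenchyme genes were higher in SE. So were 5 of 6 neural crest genes and 5 of 6 blood and endothelium genes. In NE 6 of 7 anterior neural genes and 1 of 3 endoderm and notochord genes were then higher. With 1 array left out fewer of these genes met the detection filter. The counts were then 7 of 8 anterior neural genes without NE replicate 1, 2 or 3, 5 of 7 mesenchyme genes without SE replicate 1, 2 or 3, and 1 of 3 endoderm and notochord genes without NE replicate 1 or 2 and 2 of 3 without NE replicate 3. Without moderated variances 2 of the 8 blood and endothelium genes were higher in SE. In pooled tissue, fewer cells of a type and less RNA per cell cannot be told apart.

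Of the 11 tested probes, 4 passed an adjusted p of 0.05 with the higher mean in SE and 5 with the higher mean in NE, and the other 2 did not pass. Among all tested probes 37.3% passed, 17.1% higher in SE and 20.2% higher in NE. When arrays were aligned by their medians alone, 34.6% of the called probes were higher in SE, against 45.9% with quantile normalization, and the member probes numbered 3 and 5. The 9 probes that passed were also those whose tissues did not overlap, which was so for 51.0% of all tested probes. Each of the 9 was detected on all 6 arrays, so none was kept by the detection filter through its brighter tissue alone. The median log2 difference of SE minus NE was -0.26 over the 11 member probes and -0.021 over all tested probes, and the median size of the difference, without its sign, was 0.82 over the members and 0.22 over all. Probes of 1 gene were read from the same samples and are not replicates of each other. The SE-higher probes were those of Pcdh1, Pcdh7 and Pcdh19, and the NE-higher probes those of Pcdh17, Celsr2, Celsr3 and Fat1.

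**Figure D1:**
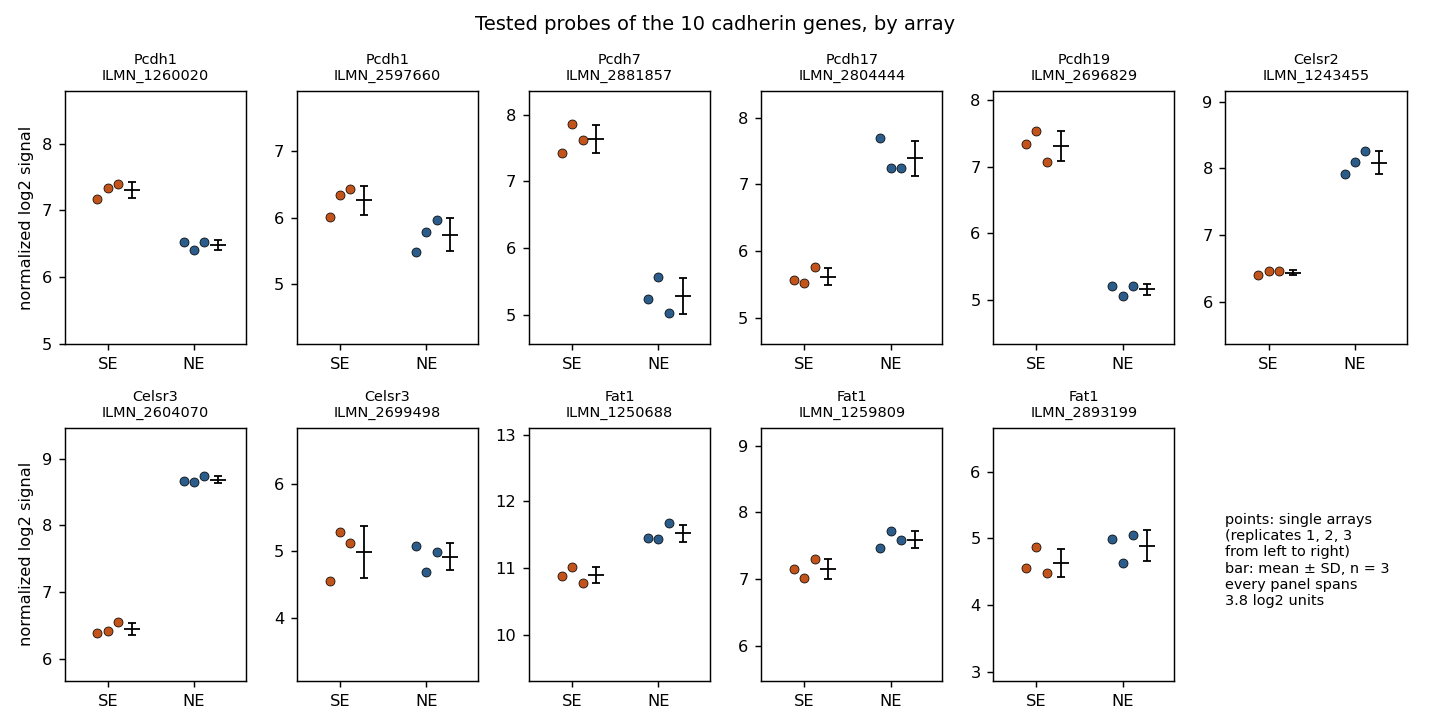
Normalized log2 signal (vertical axis) of the 11 tested probes on the 3 SE and 3 NE arrays, with the mean ± SD (n = 3) beside the points; every panel spans the same number of log2 units. The tissues do not overlap at 9 probes, and they overlap at the second Celsr3 probe and the third Fat1 probe.

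Pcdh7 was the protocadherin with the largest difference among the tested probes. Pcdh7, a delta-1 protocadherin whose Xenopus counterpart is needed for adhesion in the embryonic ectoderm and for neural tube formation, had normalized log2 signals of 7.43, 7.86 and 7.62 on SE arrays 1, 2 and 3, against 5.24, 5.57 and 5.03 on NE arrays 1, 2 and 3 (probe ILMN_2881857). Every SE array was brighter than every NE array by more than the spread within either tissue. The mean was 7.64 ± 0.21 (SD, n = 3) in SE and 5.28 ± 0.27 (SD, n = 3) in NE, a 5.13-fold difference, with a log2 difference of 2.36 (SE of the estimate 0.16, adjusted p = 2.33e-05). Without background correction the log2 difference was 1.58, and in the deposited scaled values it was 1.61. The other 3 probes of Pcdh7 were not detected on any array, with signals before normalization between 51.5 and 65.7 in SE and between 48.5 and 64.6 in NE. The Pcdh7 difference thus rests on 1 of its 4 probes, all of which are annotated to the same transcript record.

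Pcdh19 showed a difference of like size in the same direction. Pcdh19, a delta-2 protocadherin that binds N-cadherin and whose loss in humans causes an epilepsy that mainly affects females, had log2 signals of 7.34, 7.53 and 7.08 in SE, against 5.21, 5.06 and 5.21 in NE (probe ILMN_2696829). The tissues were separated by more than the range of either. Its mean was 7.31 ± 0.23 (SD, n = 3) in SE and 5.16 ± 0.087 (SD, n = 3) in NE, a 4.45-fold difference, with a log2 difference of 2.15 (SE of the estimate 0.12, adjusted p = 9.06e-06). Without background correction the log2 difference was 1.38. The second Pcdh19 probe was not detected on any array and had log2 means of 4.39 in SE and 4.39 in NE.

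Pcdh1, a delta-1 protocadherin of epithelia, was higher in SE at both of its probes, by smaller amounts. The brighter probe (ILMN_1260020) had log2 signals of 7.17, 7.34 and 7.39 in SE, against 6.52, 6.40 and 6.53 in NE. The tissues did not overlap, and the difference of 0.82 (SE of the estimate 0.089, adjusted p = 2.95e-04) is 1.76-fold. The other probe (ILMN_2597660) had 6.02, 6.33 and 6.42 in SE, against 5.48, 5.78 and 5.97 in NE, so that the lowest SE array lay close to the highest NE array. Its difference of 0.52 (1.43-fold, adjusted p = 0.0311) kept its direction in all 15 alternatives but passed the threshold in 8 of them. Its adjusted p was 0.094 without SE replicate 2, 0.105 without SE replicate 3, 0.0839 without NE replicate 1 and 0.0644 without NE replicate 2, and it was also above the threshold with median centring, with no filter on detection and without moderated variances.

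In the SE samples Pcdh1, Pcdh7 and Pcdh19 were higher. Most tested genes from the lists of mesenchyme, neural crest, and blood and endothelium markers were higher there too. The summed normalized signal of the 10 cephalic mesenchyme genes tested was 5337 to 6371 on the SE arrays and 4223 to 4817 on the NE arrays. Of these genes Mest and Cdh11 were the 2 higher in NE, and Col1a1, Col1a2, Foxc2 and Tbx15, from the same list, were not detected on any array. Mest was the brightest of the 10 in both tissues, with log2 means of 11.43 in SE and 11.94 in NE. It therefore weighs most in these sums, whereas the median log2 difference of the 10 genes was 1.88. The summed signal of the 7 neural crest genes was 6845 to 7726 in SE and 3718 to 4626 in NE. Sox9 was the 1 of them higher in NE, with a log2 difference of -0.72 (adjusted p = 4.71e-04). It was also the brightest of the 7 in NE, with log2 means of 10.90 in SE and 11.61 in NE, so that it weighs most in the NE sum. The median log2 difference of the 7 genes was 1.57. Tfap2b had the largest difference, with log2 means of 11.43 in SE and 7.77 in NE. Foxd3, Erbb3 and Itga4 were not detected on any array. The summed signal of the 8 blood and endothelium genes was 4500 to 8222 in SE and 872 to 2464 in NE. Gata1 and Tie1 were not detected on any array. Which cells gave these signals, and their part in the protocadherin differences, was not tested.

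Pcdh17 ran the other way from Pcdh19. Pcdh17, which in mouse brain acts in axon growth and synapse formation, had log2 signals of 5.57, 5.52 and 5.76 in SE, against 7.69, 7.24 and 7.24 in NE (probe ILMN_2804444). All 3 NE arrays were brighter than all 3 SE arrays, and NE replicate 1 was the brightest. The mean was 5.61 ± 0.13 (SD, n = 3) in SE and 7.39 ± 0.26 (SD, n = 3) in NE, which is 3.43-fold higher in NE, with a log2 difference of -1.78 (SE of the estimate 0.14, adjusted p = 5.04e-05). The difference was -1.63 without NE replicate 1. The second Pcdh17 probe was detected on 1 SE and 1 NE array only and was not tested, with log2 means of 4.70 in SE and 4.72 in NE.

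Pcdh8 and Pcdh18, also delta-2 genes, were at or near the level of background. Pcdh8, known as paraxial protocadherin for its part in the somite-forming mesoderm, had 3 probes. The brightest of them had signals before normalization of 67.9, 72.9 and 69.2 in SE, against 64.5, 69.7 and 68.7 in NE, and was detected on 1 array of each tissue. Pcdh18, a delta-2 protocadherin whose cytoplasmic tail binds the adaptor Dab1, had signals of 49.1, 57.6 and 61.9 in SE, against 63.8, 50.6 and 60.7 in NE, at its only probe, and was not detected on any array. For comparison, the median signal of undetected probes lay between 55.3 and 57.7 on the SE arrays and between 54.4 and 57.2 on the NE arrays. A difference in these genes was not detectable with these probes, which does not show that the RNA was absent.

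**Figure D2:**
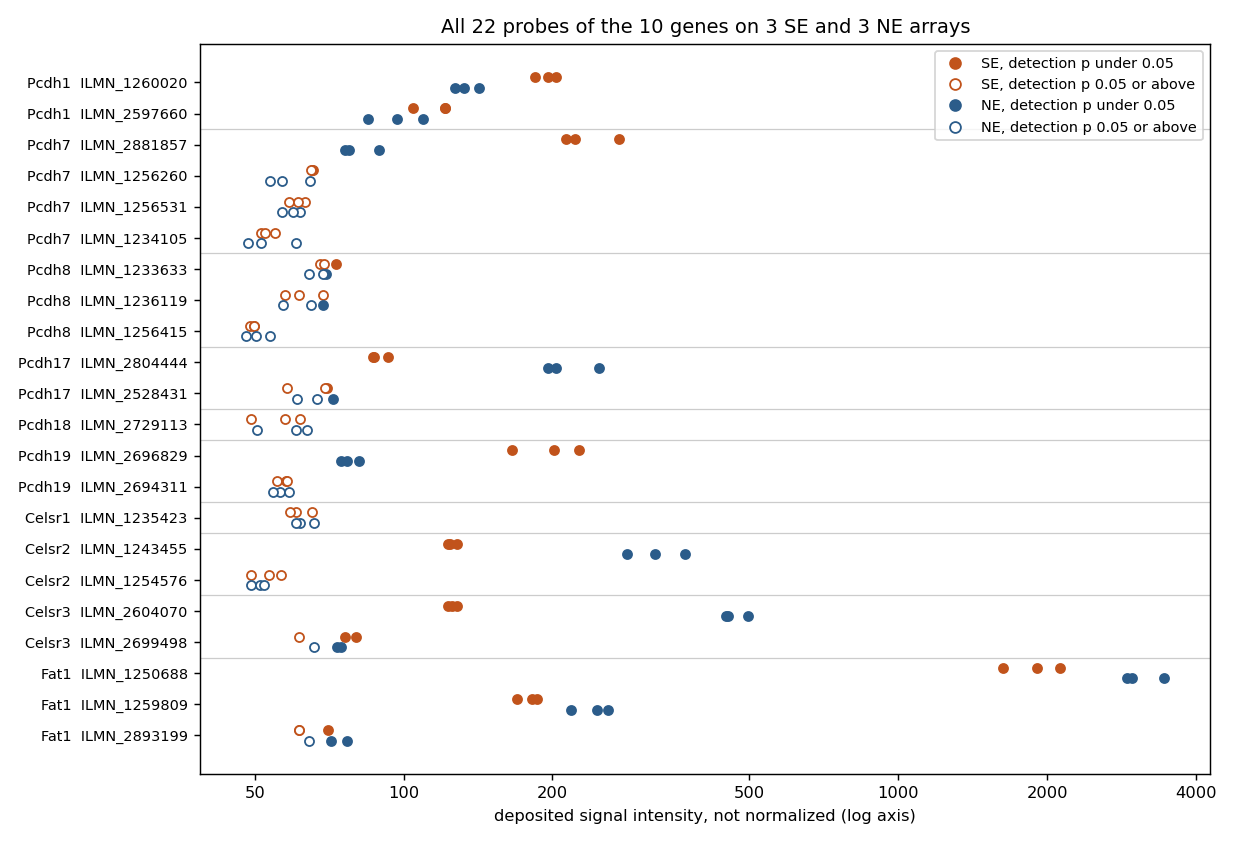
Deposited signal before normalization (log axis) of all 22 probes on the 3 SE arrays (upper row of each probe) and 3 NE arrays (lower row); filled points have a detection p under 0.05. Pcdh7, Pcdh19, Pcdh17 and Celsr2 each have 1 clearly detected probe, and the probes of Pcdh8, Pcdh18 and Celsr1 lie between 48.1 and 72.9.

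Of the Celsr genes, Celsr3 and Celsr2 were higher in NE and Celsr1 was not detected. Celsr3, which guides axon tracts in the mouse forebrain, had the smallest adjusted p of the member probes. Its log2 signals were 6.38, 6.41 and 6.55 in SE, against 8.66, 8.65 and 8.74 in NE (probe ILMN_2604070), and the arrays of each tissue lay close together. The mean was 6.45 ± 0.093 (SD, n = 3) in SE and 8.68 ± 0.052 (SD, n = 3) in NE, 4.71-fold higher in NE, with a log2 difference of -2.24 (SE of the estimate 0.081, adjusted p = 1.03e-06). The second Celsr3 probe (ILMN_2699498) had 4.55, 5.29 and 5.12 in SE, against 5.08, 4.68 and 4.98 in NE. Its tissues overlapped, it was detected on 2 arrays of each tissue, and its log2 difference of 0.074 had a 95% interval from -0.38 to 0.53 (adjusted p = 0.797). Both Celsr3 probes are annotated to the same transcript record, and that interval does not include the difference of the brighter probe.

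Celsr2, which acts in mouse brain on the planar polarity of ciliated ependymal cells, had log2 signals of 6.40, 6.45 and 6.46 in SE, against 7.91, 8.09 and 8.26 in NE (probe ILMN_1243455). The SE arrays were nearly equal and all lay below the NE arrays. The mean was 6.44 ± 0.032 (SD, n = 3) in SE and 8.09 ± 0.18 (SD, n = 3) in NE, 3.14-fold higher in NE, with a log2 difference of -1.65 (SE of the estimate 0.10, adjusted p = 1.32e-05). The other Celsr2 probe, annotated to a different transcript record, was not detected on any array. Celsr1, whose mouse mutants fail to close the neural tube, had signals before normalization of 60.5, 65.4 and 59.0 in SE, against 61.6, 65.9 and 60.5 in NE at its only probe. The lowest detection p of that probe was 0.104, so that no level of Celsr1 could be given in either tissue.

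Fat1, whose loss in the mouse disturbs kidney podocytes and the development of the forebrain and eye, had log2 signals of 10.88, 11.02 and 10.78 in SE, against 11.45, 11.44 and 11.68 in NE at its brightest probe (ILMN_1250688). The tissues did not overlap, with means of 10.89 ± 0.12 (SD, n = 3) in SE and 11.52 ± 0.13 (SD, n = 3) in NE. Fat1 was 1.54-fold higher in NE, with a log2 difference of -0.63 (SE of the estimate 0.10, adjusted p = 0.00229). The second probe (ILMN_1259809) had 7.14, 7.01 and 7.30 in SE, against 7.46, 7.72 and 7.59 in NE, a 1.36-fold difference in the same direction (adjusted p = 0.0137). Without moderated variances its adjusted p was 0.056. The third, dim probe (ILMN_2893199) was detected on 1 SE and 2 NE arrays, and its tissues overlapped, with 4.56, 4.87 and 4.47 in SE and 4.99, 4.62 and 5.06 in NE (adjusted p = 0.209). Its log2 difference was -0.26, with a 95% interval from -0.60 to 0.084. All 3 Fat1 probes had a lower mean in SE.

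In NE, where Pcdh17, Celsr2, Celsr3 and Fat1 were higher, the summed signal of the 6 endoderm and notochord genes tested was 187 to 228 on the SE arrays and 825 to 1053 on the NE arrays. Of these genes Shh, Nkx2-9, Foxa1 and Foxa2 were higher in NE, and Apoa1 and Foxa3 did not pass (adjusted p = 0.137 and 0.104). Shh, Foxa1 and Foxa2 were detected on no SE array. Afp and Cer1, from the same list, were not detected on any array. Ttr and Noto were detected on 1 NE array each, and Sox17 on 1 SE array. The list name does not show that these genes are confined to endoderm and notochord. Whether cells of NE itself or other cells gave these signals, and their part in these differences, was not tested.

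**Figure D3:**
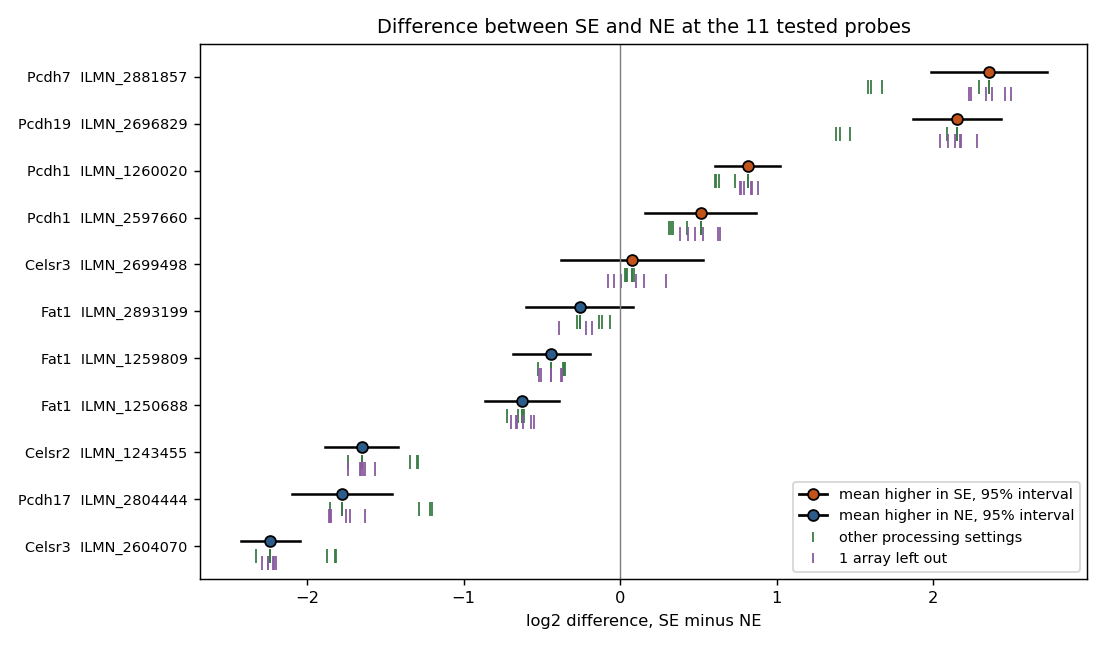
Log2 difference of SE minus NE (horizontal axis) at the 11 tested probes, with the 95% interval of the limma fit (black line). Green ticks are the other processing settings and purple ticks the fits with 1 array left out. At the 9 probes that passed, every tick stays on the side of zero of its point. The green ticks of Pcdh7, Pcdh19, Pcdh17, Celsr2 and Celsr3 that lie closest to zero are the fits without background correction, with the larger offset and on the deposited scaled values.

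The sequence before the transcription start was set beside these differences for 8 of the 10 genes that matched RefSeq's promoter windows (GRCm38.p6), each covering 250 bases before and 50 after the start. Motifs were searched by their letters on both strands: AACCNGTT for Grainyhead-like factors, the epidermal regulators the study turned to, CTTTGA for the TCF factors of Wnt signalling, GCCNNNGGC for AP-2, ACAATG for SOX factors, and the general promoter elements CCAAT and GGGCGG. The last pair was added after the sequences were seen, and matches to different motifs did not overlap. AACCNGTT was in 0 of the 8 windows and in 2.09% of all 32851 windows, and ACAATG was in 0 of the 8 and in 12.6% of all. CTTTGA was in the Pcdh7 window only, against 16% of all windows, and GCCNNNGGC in the Pcdh17 window only, against 16.6%. CCAAT was in the windows of Pcdh8, Pcdh17, Pcdh18 and Pcdh19, against 37.4% of all, and GGGCGG in those of Pcdh17, Pcdh18, Pcdh19 and Celsr3, against 35.7%. The stretch upstream of the annotated gene is shown for Pcdh19, higher in SE, and for Pcdh17 and Celsr3, higher in NE, because these genes differed by more than 3-fold and their windows reach outside the gene; capitals mark the matches, and the sequences run 5′ to 3′ on the strand of the gene.
Pcdh19 (chrX:133689045-133689243, minus strand): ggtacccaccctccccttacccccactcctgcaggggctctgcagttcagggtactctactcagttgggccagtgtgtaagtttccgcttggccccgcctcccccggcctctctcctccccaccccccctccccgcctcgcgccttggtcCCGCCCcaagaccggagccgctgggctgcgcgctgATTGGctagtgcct
Pcdh17 (chr14:84443313-84443562, plus strand): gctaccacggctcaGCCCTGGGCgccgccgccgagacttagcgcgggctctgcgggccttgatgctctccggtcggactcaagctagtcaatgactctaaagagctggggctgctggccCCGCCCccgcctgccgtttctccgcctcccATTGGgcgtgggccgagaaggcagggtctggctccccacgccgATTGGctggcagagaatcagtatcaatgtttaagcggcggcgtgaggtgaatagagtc
Celsr3 (chr9:108825795-108826022, plus strand): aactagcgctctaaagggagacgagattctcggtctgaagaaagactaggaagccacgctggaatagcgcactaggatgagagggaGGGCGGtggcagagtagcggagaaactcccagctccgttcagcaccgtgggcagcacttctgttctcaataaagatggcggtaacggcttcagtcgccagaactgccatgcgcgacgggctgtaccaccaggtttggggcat
The Pcdh19 and Pcdh17 stretches each hold a GC box (read here as CCGCCC) and, closer to the start, inverted CCAAT boxes (ATTGG), 1 in Pcdh19 and 2 in Pcdh17, and these genes differed in opposite directions. The windows of Pcdh19, Pcdh17 and Celsr3 held 18, 26 and 25 CpG dinucleotides and that of Celsr2 held 40, against a median of 7 over all windows, while those of Pcdh7 and Fat1 held 11 and 2. The windows of Pcdh7, Celsr2 and Fat1 lie inside the annotated span of their genes. A match is a description of letters and not a binding site.

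Partners of these cadherins were counted in the same fit, where 40.3% of the 10603 named genes passed, 18.7% higher in SE and 21.6% higher in NE. Of the 21 planar polarity partners tested, 7 passed with SE higher, 3 with NE higher and 11 did not pass, with a median log2 difference of -0.13. Ror1 and Ror2, receptors for the noncanonical ligand Wnt5a, were 2.27-fold and 1.67-fold higher in SE, the Dishevelled regulator Dact1 2.22-fold and the pseudokinase Ptk7 1.58-fold. Ror1 and Dact1 were detected on 1 NE array. The 3 genes higher in NE were Intu, a planar polarity effector of ciliogenesis, Ankrd6 and the Frizzled receptor gene Fzd3, with log2 differences of -0.61, -0.60 and -0.49. Vangl2, the core partner of the Celsr proteins, differed by -0.13 on the log2 scale at the brighter of its probes (adjusted p = 0.178) and by 0.18 at the other. Intu, Ankrd6, Fzd3 and Vangl2 were picked with their values known. With detection required on all 6 arrays, 5 of 18 planar polarity partners were higher in SE and 3 in NE. With median centring the counts were 5 and 3 of 21.

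Of the 15 genes tested from the list of Fat and Dachsous partners and growth control, 2 passed with SE higher, 5 with NE higher and 8 did not pass, with a median log2 difference of -0.067. Lix1, a vertebrate relative of Drosophila lowfat, was 5.78-fold higher in NE, with log2 differences from -2.53 to -1.59 over its 4 probes. Dchs1, the Dachsous ligand of Fat4, had a 1.53-fold difference towards NE and was detected on 1 SE array, and Fjx1, the relative of the Drosophila kinase four-jointed, was 1.46-fold higher in NE. Sav1 and Stk4, members of the Hippo kinase cassette, completed the 5 with log2 differences of -0.40 and -0.28. Frmd6 and Wwc1, upstream regulators of the Hippo pathway, were 1.81-fold and 1.35-fold higher in SE. Sav1, Stk4 and Wwc1 were likewise picked with their values known. The number higher in NE was 3 without SE replicate 2, without SE replicate 3 and without NE replicate 3. Fat2 and Fat4 were not detected on any array, and Fat3 was detected on 1 array of each tissue.

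**Figure D4:**
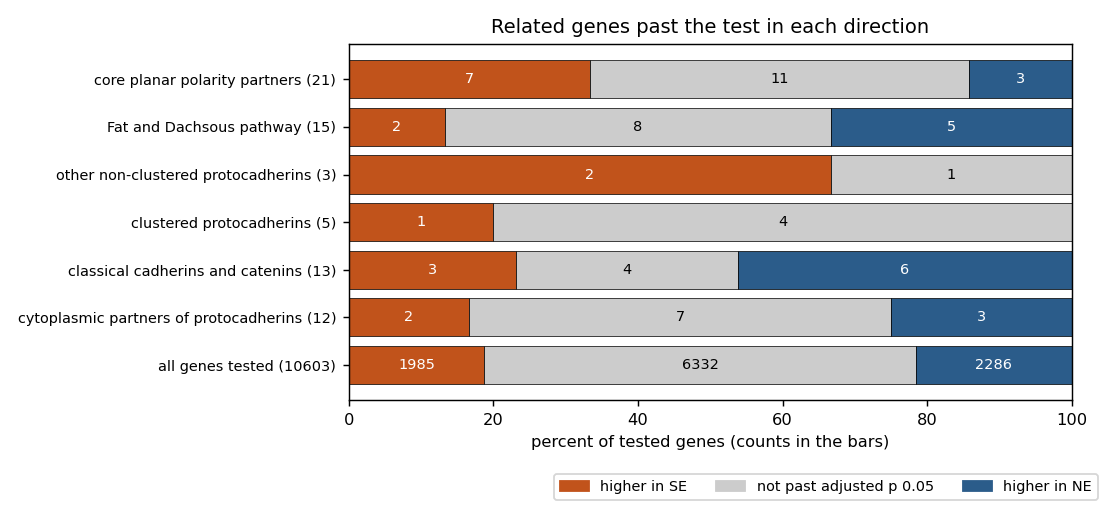
Percent of tested genes (horizontal axis, counts in the bars) higher in SE, not past an adjusted p of 0.05, or higher in NE, for 6 lists of related genes and for all genes tested; numbers of tested genes stand after the names. In this fit planar polarity partners divide 7 to 3 towards SE, and the Fat and Dachsous list 2 to 5 towards NE. With detection required on all 6 arrays, which is not drawn, they divide 5 to 3 and 3 to 5.

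Few other protocadherins reached detection. Of the other non-clustered genes only Cdhr1, Cdhr2 and Pcdh10 were tested. Cdhr1, which encodes the photoreceptor cadherin, had log2 means of 7.53 in SE and 5.47 in NE, a 4.18-fold difference (adjusted p = 1.92e-06), and Cdhr2, a cadherin of brush border microvilli, was 1.76-fold higher in SE. The delta-2 gene Pcdh10 had a log2 difference of 0.27 (adjusted p = 0.151), and Pcdh9, a delta-1 gene detected on 2 SE arrays and no NE array, was not tested. None of the tested genes Cdhr1, Cdhr2 and Pcdh10 was higher in NE in limma, also at an unadjusted p under 0.05 (0 genes). Of 37 clustered protocadherin genes on the array, 5 were tested, and 1 of them, Pcdha11, was at least 1.10-fold higher in SE (adjusted p = 0.0353), with detection on no NE array. None of the 5 was higher in NE in limma, with 0 at an unadjusted p under 0.05 also. The count of 1 was 0 in each fit with an array left out except the fit without NE replicate 3. Genes of the alpha and gamma clusters share their last exons, so that their probes may not separate them.

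Among 13 classical cadherins and catenins tested, 3 passed with SE higher, 6 with NE higher and 4 did not pass. Cdh3, which encodes P-cadherin and was not detected on any NE array, was at least 20.6-fold higher in SE, and Cdh1, which encodes E-cadherin, 9.96-fold, although the probes of each differed, with log2 differences from 0.76 to 4.68 and from 0.43 to 3.32. The brightest probe of Cdh13, a cadherin held by a lipid anchor, was detected on 0 SE arrays and was at least 2.75-fold higher in NE, while a second probe was detected on 2 SE arrays and was 1.65-fold higher in NE, with log2 differences of -1.74 and -0.72. Cdh6, a cadherin of the neural folds and early crest, was 3.15-fold higher in NE. Cdh2, which encodes N-cadherin, was detected on 2 NE arrays and no SE array and was not tested. Its probe was dim, with a log2 mean of 5.23 in NE, which does not show that the RNA was scarce. The study used N-cadherin protein as a marker of NE. The number higher in SE was 1 without SE replicate 2, and the number higher in NE was 3 without NE replicate 1.

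Among 12 cytoplasmic partners of protocadherins tested, 2 passed with SE higher, 3 with NE higher and 7 did not pass. Dab1, the reelin pathway adaptor that binds Pcdh18, had log2 means of 8.25 in SE and 7.13 in NE, a 2.18-fold difference (adjusted p = 9.77e-05), and its 3 probes had differences from 0.79 to 1.12. Wasf2 was 1.27-fold higher in SE and Wasf1 1.27-fold higher in NE. Both are genes of the WAVE complex, through which some delta-2 protocadherins reach actin. Abi2 of the same complex was 1.36-fold and the kinase gene Fyn 1.19-fold higher in NE. The Fyn difference lay close to the threshold (adjusted p = 0.0492), with low log2 means of 4.96 in SE and 5.20 in NE. The second Wasf2 probe had a log2 difference of 0.018, and Fyn was picked with its values known. The number higher in NE was 1 without SE replicate 1.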

How the data were processed

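The deposited signal intensity of each probe, on a linear scale without normalization, and its detection p-value against negative controls were exported by the authors with BeadStudio (version not given in these sources). The deposited scaled intensity values equal these signals times 1 constant per array, between 0.966 and 1.07, and were used as an alternative. Signals were corrected with limma 3.58.1 in R 4.3.3 (neqc, offset 16, log2). The fit of SE against NE (lmFit, eBayes) held the 19590 probes detected at p under 0.05 by 3 or more of the 6 arrays, with Benjamini-Hochberg adjustment over all of them. Folds are differences of mean log2 signals. Where no array of the dimmer tissue detected a probe, each of its arrays was raised to at least that array's lowest detected signal and the fold is written as at least N-fold. The number of arrays limits the precision.

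Symbols came from the platform annotation, updated through Entrez identifiers for 34807 probes, and 10378 probes had none. A listed gene is represented by its brightest tested probe. The members and lists were chosen with earlier results of these data known. The text names all members and, from each list, up to 4 genes with the largest difference among those that passed, with others said to be named later. The fit was tested on simulated data. The alternatives changed the background correction, offset, normalization, detection filter, moderation of variances, replicate block or left out 1 array. Promoter windows were searched in Python 3.11.15 and plots drawn with matplotlib 3.10.9.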

Additional observations from a re-analysis of the deposited data

How the results depend on the processing

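The 11 tested probes gave 159 values under 15 alternatives, some of which dropped dim probes through the detection filter, of which 151 kept their direction or stayed without a call and their side of the threshold, and 8 lost the call. Of these 8, 7 were the dimmer Pcdh1 probe and 1 the second Fat1 probe, and no called value changed direction. The counts of member probes were 3 to 4 higher in SE and 5 higher in NE with 1 array left out, and 3 and 4 without moderated variances. With 1 array left out the counts over all probes were 2371 to 2959 higher in SE and 2933 to 3335 higher in NE. The ranges were 7 to 8 and 3 to 4 for planar polarity partners, 2 to 3 and 3 to 5 for the Fat and Dachsous list, 1 to 3 and 3 to 6 for classical cadherins and catenins, 2 and 1 to 3 for cytoplasmic partners, 2 to 3 and 0 for other non-clustered protocadherins and 0 to 1 and 0 for clustered protocadherins. The single clustered gene higher in SE became 0 without background correction, with the offset of 50, with median centring, with detection on all 6 arrays, at a detection p under 0.01, with the replicate block and without moderated variances, and 2 with no filter on detection. With no filter, 4 other non-clustered protocadherins were higher in SE and 3 Fat and Dachsous genes in NE, which was also 3 without moderated variances. With detection on all 6 arrays 3 classical cadherins and catenins were higher in NE, where 9 genes were tested in place of 13. With median centring 1 cytoplasmic partner was higher in SE. Apart from the stricter detection filter, the cause was not tested. With the replicate number as a block, 6507 of 19590 probes were called, against 7310 without it, with 4 member probes higher in SE and 5 in NE. That block used the replicate numbers of the labels, which are uncertain for 2 of the NE arrays. The deviations of same-numbered arrays correlated with r between -0.037 and -0.02, and those of differently numbered arrays between -0.0084 and 0.040. With 3 arrays per tissue and uncertain numbers, these values cannot show whether the samples were paired. The study compared SE with NE within each replicate. Signal over background limits the 11 probes that were not tested.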
